A study of Danio rerio with 9 samples.

Results

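Cadherins and protocadherins are surface proteins that hold cells to one another or let them sort from one another. The genes described here are the lines of the count table whose name begins with *cdh* and a number, or is *pcdh* with a number and at most 1 letter, without *cdh17*. There were 45 such lines among 31956 lines with a gene name. *cdh23*, *pcdh20* and *pcdh11* each had 2 lines, and the line with the higher mean count was kept, which left 42 genes, 25 cadherins and 17 protocadherins. Of these, 37 passed the filter on low counts and were tested.

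Classical cadherins span the membrane, bind a cadherin on the neighbouring cell through calcium-dependent repeats, and hold the actin cortex through catenins. Type I classical cadherins (*cdh1*, *cdh2*, *cdh4*, *cdh15*) adhere strongly, and exchange between them is a known part of the change from epithelial to mesenchymal cells. Type II cadherins (*cdh5*, *cdh6*, *cdh11* and others) adhere more weakly and mark boundaries between cell populations. Delta protocadherins have little strong adhesion of their own. The delta-2 members can recruit the WAVE complex, which promotes branched actin, and *pcdh8*, called paraxial protocadherin, is a marker of the forming paraxial mesoderm.

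RNA was sequenced from 9 samples of 10 pooled tailbuds each, cut from zebrafish embryos just behind the last somite. There were 3 samples from wild type, 3 from tg(*hsp70l:tbx16*) and 3 from tg(*hsp70l:msgn1*), in which the heat-shock promoter *hsp70l* drives the T-box factor *tbx16* or the basic helix-loop-helix factor *msgn1*. All 3 groups, wild type included, were of the TLF strain and were heat-shocked for 30 min at the 2 to 3 somite stage and then left for 3 h, so the heat shock itself is common to every comparison. The question addressed was which genes lie downstream of these factors in the tailbud. The promoter acts throughout the embryo and not in the tailbud alone. Embryos of the *msgn1* line were bred by outcrossing carriers of 1 copy, and their siblings that genotyped without the transgene made up the wild-type pools. Embryos of the *tbx16* line were bred by outcrossing homozygous carriers, so that parents and genotype cannot be told apart in the comparisons of that line. Nothing in the labels states that the samples of a group came from separate clutches, and the p-values measure the spread between these pools.

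Counts summed to between 30724561 and 49611289 per sample, and levels are given as CPM, a gene's count relative to the total of its sample, after TMM scaling, a step that sets the bulk of genes equal between samples. The labels matched the driven genes. *tbx16* lay at 332 to 372 CPM in wild type and 564 to 976 in the *tbx16* line (log2 fold change 1.15, adjusted p = 0.00149 by edgeR's quasi-likelihood test), and *msgn1* at 701 to 889 CPM in wild type and 1428 to 1958 in the *msgn1* line (1.19, adjusted p = 0.0262). Reads of a transgene and of its endogenous gene were not told apart. Of 13 listed markers of tailbud and presomitic mesoderm 12 were found and none was at 0 throughout. In the *tbx16* line 8 of them were lower and 1 higher than in wild type, beside 15.7% and 15.0% of all genes tested. The 1 higher was *tbx16* itself, the driven gene, which is on that list. Samples also differed in other tissue. Summed yolk syncytial layer markers reached 506 CPM in *tbx16* replicate 1 against 35.3 and 75.1 in the other 2 samples of that line and 1071 to 1150 in wild type, and 1 of the 6 was at 0 in every sample. Without *tbx16* replicate 1 the members that passed against wild type were 3 higher and 6 lower. Over all genes 4845 passed in that fit, and 6120 with all 9 samples. In pools of tissue, fewer cells of a type and less RNA per cell cannot be told apart.

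The *tbx16* line differed from wild type in a set of cadherins of many kinds. By edgeR's quasi-likelihood test at an adjusted p under 0.05, 13 of the 37 tested members changed (35.1%), where 30.7% of the 19914 genes tested did. Of these, 5 were higher (*cdh4*, *cdh15*, *pcdh17*, *pcdh18b*, *pcdh20*), beside 15.0% of all genes, and 8 were lower (*cdh1*, *cdh5*, *cdh6*, *cdh7a*, *cdh11*, *pcdh15b*, *pcdh18a*, *pcdh19*), beside 15.7%. The share of members that changed was thus close to that of all genes. The median log2 fold change was -0.048 over members, also with *pcdh15b*, which had 0 counts throughout the line, placed at its limit of detection, and 0.0305 over all genes tested. The samples of the line and of wild type did not overlap for 18 members (48.6%), beside 52.8% of all genes, 9 of them higher (27.8% of all genes) and 9 lower (25.1%). All 13 members that passed also differed by at least 1.5-fold. They were 35.1% of the members tested, where 24.1% of all genes tested met both conditions. Of the 6120 genes that passed, 4801 differed by at least 1.5-fold. An unadjusted p under 0.05 was met by 15 members (40.5%), beside 41.9% of all genes.

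The *msgn1* line moved fewer members. By the same test 2 of 37 changed (5.41%), beside 0.854% of all genes. Both were higher, *pcdh18a* and *pcdh18b*, beside 0.357% of all genes, and 0 were lower, beside 0.497%. Both differed by at least 1.5-fold, as did 162 of the 170 genes that passed (0.813% of all genes tested). At an unadjusted p under 0.05 the counts were 5 higher and 7 lower, 12 in all (14.1% of all genes), and DESeq2 called 5 higher (*cdh2*, *pcdh7b*, *pcdh10b*, *pcdh18a*, *pcdh18b*) and 4 lower (*cdh1*, *cdh6*, *cdh11*, *pcdh17*), beside 1.49% and 2.11% of all genes (3.61% in all). The samples did not overlap for 13 members (35.1%), beside 18.6% of all genes, and of these 8 were lower (9.78% of all genes) and 5 higher (8.84%). The median log2 fold change was -0.132 over members and -0.02 over all genes.

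The *tbx16* line was set against the *msgn1* line as the test of a difference between their effects. Here 16 of 37 members differed (43.2%), beside 38.3% of all genes, 6 higher in the *tbx16* line (18.5% of all genes) and 10 lower (19.8%). The median was 0.0925 over members and 0.0503 over all genes, and the groups did not overlap for 20 members (54.1%), beside 51.1%, with 10 higher (27.4%) and 10 lower (23.7%). A difference of at least 1.5-fold was also met by 15 of the 16, *cdh2* being the exception. The 15 were 40.5% of the members tested, where 29.7% of all genes tested met both conditions. Of the 7637 genes that passed, 5920 differed by at least 1.5-fold. An unadjusted p under 0.05 was met by 18 members (48.6%), beside 48.3% of all genes. The comparisons of the lines with wild type share the wild-type samples.

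**Figure D1:**
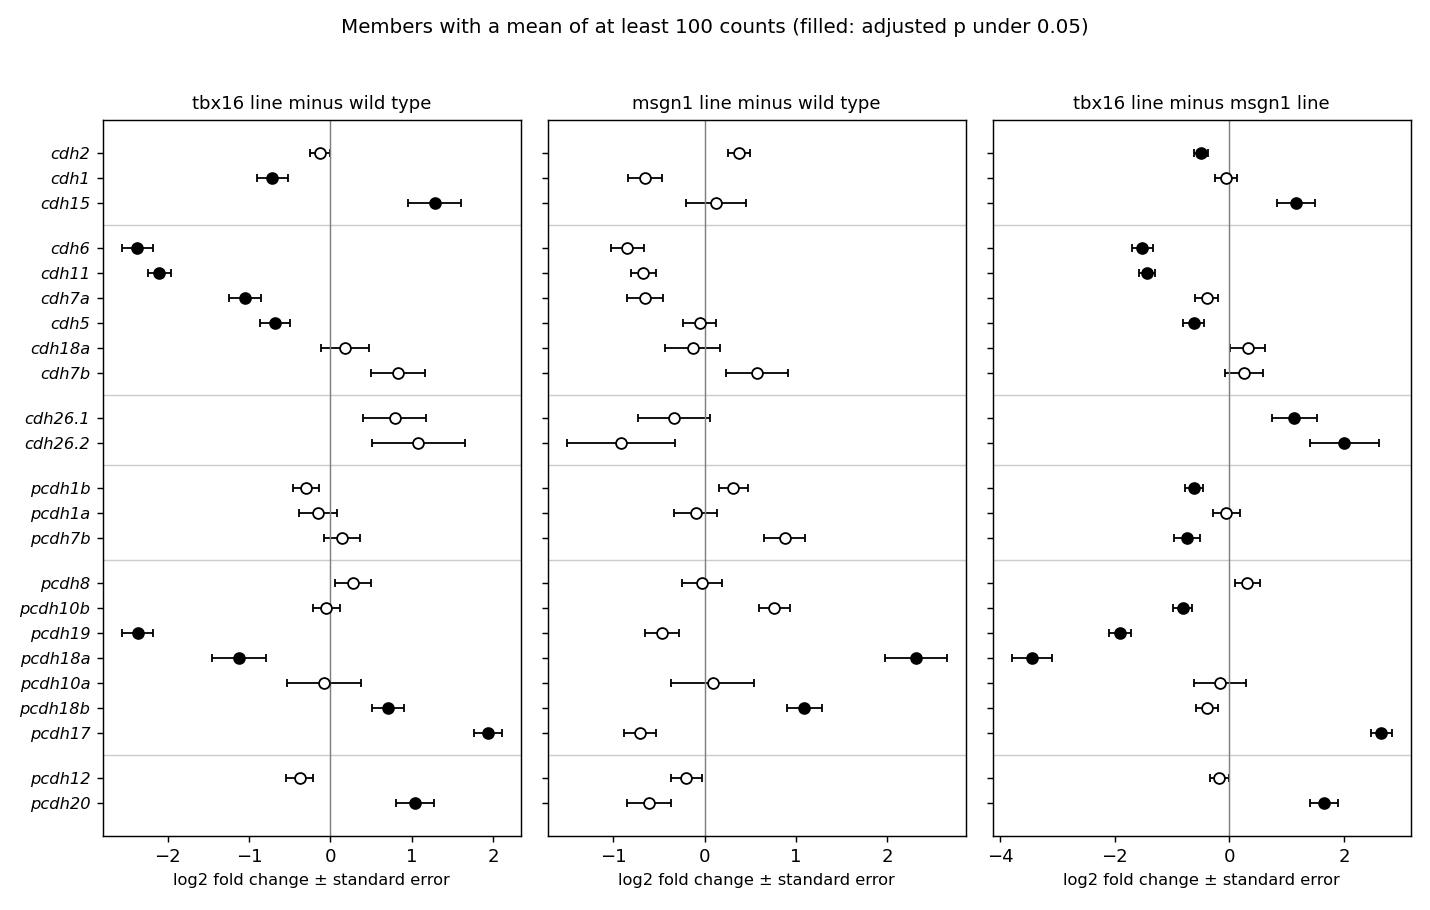
Log2 fold change with its standard error (edgeR) for the 23 members with a mean of at least 100 counts, in the *tbx16* line against wild type (left), the *msgn1* line against wild type (middle) and the *tbx16* line against the *msgn1* line (right), grouped by class from type I cadherins at the top to other protocadherins at the bottom. Filled points have an adjusted p under 0.05. *cdh6*, *cdh11* and *pcdh19* lie at -2.103 or below on the left, and *pcdh18a* lies on opposite sides of 0 on the left and in the middle.

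The plot of fold changes by class shows where these calls fell. Among the 9 tested type II cadherins 4 were lower and 0 higher in the *tbx16* line, beside 15.7% and 15.0% of all genes, while 1 was higher at an unadjusted p under 0.05 and 0 by DESeq2. The class did not fall as a whole. The 5 that did not pass (*cdh7b*, *cdh10a*, *cdh18a*, *cdh24a*, *cdh24b*) had log2 fold changes above 0, from 0.18 to 1.85, and the class median was 0.183. Among the 7 tested delta-2 protocadherins 2 were higher and 2 lower, to be read beside the same shares. None of the 6 delta-1 protocadherins and none of the 7 other cadherins passed, at an unadjusted p under 0.05 and by DESeq2 as well. Both calls in the *msgn1* line were delta-2 protocadherins.

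Among the type I cadherins, *cdh1* (E-cadherin), the cadherin of epithelia, was lower in the *tbx16* line. Its level was 257, 264 and 235 CPM in wild type, 156, 157 and 148 in the *tbx16* line and 158, 211 and 111 in the *msgn1* line. Every sample of either line lay below every wild-type sample, and the *msgn1* samples were spread around those of the *tbx16* line. The log2 fold change was -0.71 ± 0.19 (SE) in the *tbx16* line (1.64-fold, adjusted p = 0.0175) and -0.65 ± 0.19 in the *msgn1* line (1.57-fold, adjusted p = 0.189). Without *msgn1* replicate 2, whose value was the highest of its group, the latter was -0.91 (adjusted p = 0.0171). The lines differed by -0.06 ± 0.19 (adjusted p = 0.831). The call in the *tbx16* line was close to the threshold. It was lost without wild type replicate 1 or 2 and without *tbx16* replicate 1, 2 or 3, with adjusted p between 0.0523 and 0.0570 and log2 fold changes between -0.72 and -0.68.

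The summed level of epidermal and enveloping layer markers varied more between samples than between groups, which did not hold for each marker. The markers summed to 7680, 12680 and 3550 CPM in wild type, 5682, 9712 and 7017 in the *tbx16* line and 12600, 6637 and 3765 in the *msgn1* line, all 10 being detected. In the *tbx16* line 3 of the 10 were lower, beside 15.7% of all genes, and 0 higher, beside 15.0% (also 0 higher at an unadjusted p under 0.05 and by DESeq2). These were *tp63*, the epidermal progenitor factor (log2 fold change -1.33, adjusted p = 0.000162), *epcam* (-0.65) and *cldni* (-1.10). In the *msgn1* line *tp63* alone was lower (-1.04, adjusted p = 0.0110), beside 0.497% of all genes. The part of these cells in the *cdh1* values was not tested.

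*cdh2* (N-cadherin), the classical cadherin of neural tube and mesoderm, did not pass against wild type in either line. It stood at 948, 1005 and 977 CPM in wild type, 934, 776 and 974 in the *tbx16* line and 1239, 1189 and 1380 in the *msgn1* line. The *msgn1* samples were above all others, and those of the *tbx16* line overlapped wild type. The log2 fold changes were 0.38 ± 0.12 in the *msgn1* line (adjusted p = 0.232) and -0.13 ± 0.12 in the *tbx16* line (adjusted p = 0.465). The lines themselves differed, by -0.50 ± 0.12 (adjusted p = 0.00932), a difference that was -0.17 (adjusted p = 0.220) under scaling to library size only.

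*cdh15* (M-cadherin), the cadherin of muscle precursors, rose in the *tbx16* line. It measured 4.31, 2.98 and 4.67 CPM in wild type, 9.92, 7.93 and 11.3 in the *tbx16* line and 2.22, 5.88 and 4.92 in the *msgn1* line. The 3 *tbx16* samples were above all 6 others, and the *msgn1* samples overlapped wild type. Its log2 fold change was 1.28 ± 0.33 (2.44-fold, adjusted p = 0.0145) against wild type and 1.16 ± 0.33 (adjusted p = 0.0193) against the *msgn1* line. The first was 1.11 (adjusted p = 0.0565) without wild type replicate 2 and the second 1.03 (adjusted p = 0.0624) without *tbx16* replicate 3. None of the 7 tested muscle markers passed in the *tbx16* line (1 at an unadjusted p under 0.05, 0 by DESeq2). They summed to 690 to 741 CPM in wild type and 450 to 775 in the line, and *tnni2a.4* was at or near 0 throughout.

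*cdh4* (R-cadherin), known from retina and brain, was near the limit of detection. It had 5, 0 and 0 counts in wild type, 43, 43 and 12 in the *tbx16* line and 5, 0 and 11 in the *msgn1* line. The *tbx16* samples were above wild type, with an adjusted p of 0.0461 at a mean of 13.2 counts over the 9 samples. The call was lost with no filter on low counts (adjusted p = 0.0599), without wild type replicate 2 or 3, without *tbx16* replicate 1, 2 or 3 and without *msgn1* replicate 1 (adjusted p between 0.0598 and 0.1302). It was 1 of 3 members that passed a test with a mean under 100 counts, beside *pcdh15b* and *pcdh7a*, which were named after their values were seen.

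**Figure D2:**
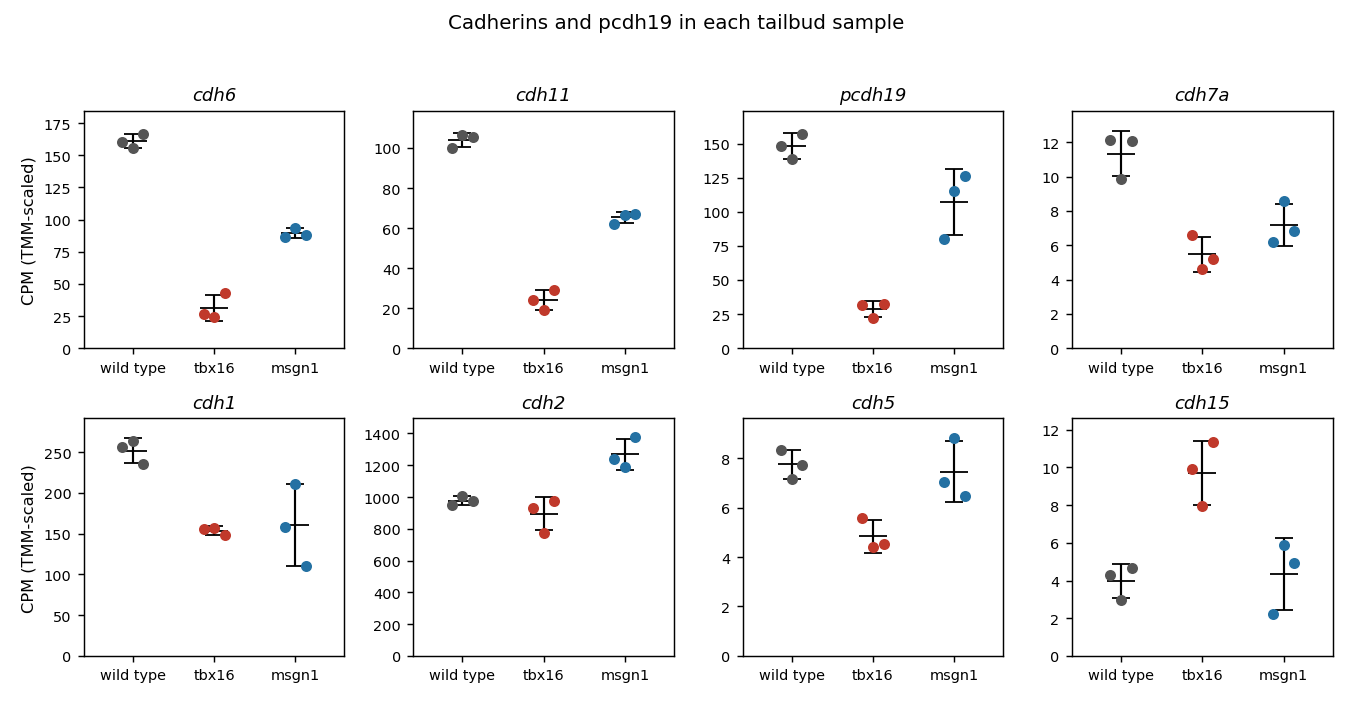
CPM after TMM scaling of 7 cadherins and *pcdh19* in each of the 9 tailbud samples, with 1 point per sample and bars for the mean and SD (n = 3 per group), on axes that start at 0. The 3 groups are apart for *cdh6*, *cdh11* and *pcdh19*, in the order wild type, *msgn1* line, *tbx16* line, and the *tbx16* samples of *cdh15* stand above all others.

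Type II cadherins held the largest falls among cadherins in the *tbx16* line. *cdh6* (K-cadherin), known from kidney and from neural crest, measured 160, 156 and 167 CPM in wild type, 26.7, 24.2 and 42.6 in the *tbx16* line and 86.4, 93.6 and 88.0 in the *msgn1* line. The 3 groups did not overlap, and the *msgn1* samples lay between the others. The log2 fold change was -2.37 ± 0.19 in the *tbx16* line (5.17-fold, adjusted p = 2.29e-05) and -0.85 ± 0.18 in the *msgn1* line (1.80-fold, adjusted p = 0.0680), and the lines differed by -1.52 ± 0.18 (adjusted p = 0.000247).

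*cdh11* (OB-cadherin), a cadherin of mesenchyme, followed the same order. Its values were 100.2, 107 and 105 CPM in wild type, 24.3, 19.3 and 29.2 in the *tbx16* line and 62.2, 66.7 and 67.3 in the *msgn1* line. No group overlapped another, and replicates lay close together. It fell by 2.103 ± 0.14 on the log2 scale in the *tbx16* line (4.29-fold, adjusted p = 9.31e-06), measured -0.67 ± 0.14 in the *msgn1* line (1.59-fold, adjusted p = 0.0577), and the lines differed by -1.43 ± 0.14 (adjusted p = 7.49e-05). The values in the *msgn1* line fell just short of the threshold for *cdh6* and *cdh11*. By DESeq2, which called 718 genes in that line, the adjusted p was 0.000822 for *cdh6* and 0.000659 for *cdh11*. Both also passed in a fit of only those groups (0.013 and 0.024) and with at least 10 counts in every sample (0.044 and 0.038). With library size alone the values were 0.039 and 0.035. Neither passed with no filter, with RLE or with repeated names summed. With *tbx16* replicate 3 left out of the joint fit the adjusted p was 0.00704 for *cdh6* and 0.0322 for *cdh11*, and without *msgn1* replicate 2 it was 0.0466 and 0.0412, while the log2 values stayed between -0.89 and -0.85 for *cdh6*. For *cdh11* leaving out *tbx16* replicate 2 also gave 0.0278. No other fit with 1 library left out passed, with adjusted p up to 0.227 for *cdh6* and 0.198 for *cdh11*. Taking the replicate number as a block gave 0.0990 and 0.104. Over all genes, leaving out *msgn1* replicate 2 raised the calls of that line from 170 to 1198.

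*cdh7a*, whose relatives in chick mark migrating neural crest, was 12.2, 9.84 and 12.1 CPM in wild type, 6.60, 4.59 and 5.22 in the *tbx16* line and 6.21, 8.56 and 6.81 in the *msgn1* line. All 6 transgenic samples were below wild type, and the lines overlapped each other. It fell by 1.053 ± 0.20 on the log2 scale in the *tbx16* line (2.08-fold, adjusted p = 0.00304). For the *msgn1* line the value was -0.66 ± 0.20 (adjusted p = 0.198). Its duplicate *cdh7b* did not pass, with 1.52 to 2.58 CPM in wild type, 3.26 to 3.88 in the *tbx16* line and 1.60 to 3.65 in the *msgn1* line (log2 fold change 0.83 ± 0.33 in the *tbx16* line, adjusted p = 0.0836). It passed there with library size alone, in a fit of only those groups and without *msgn1* replicate 2 (adjusted p = 0.0401, 0.0356 and 0.0286).

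*cdh5* (VE-cadherin), the cadherin of endothelial junctions, measured 8.34, 7.16 and 7.75 CPM in wild type, 5.59, 4.40 and 4.53 in the *tbx16* line and 7.06, 8.84 and 6.47 in the *msgn1* line. The *tbx16* samples were below all others, and the *msgn1* samples overlapped wild type. The log2 fold change was -0.68 ± 0.18 in the *tbx16* line (1.60-fold, adjusted p = 0.0182), and the lines differed by -0.62 ± 0.18 (adjusted p = 0.0223). The call against wild type was lost without wild type replicate 1 (-0.63, adjusted p = 0.0703), *tbx16* replicate 2 (-0.61, adjusted p = 0.0729) or *tbx16* replicate 3 (-0.64, adjusted p = 0.0561). The call between lines was lost without *tbx16* replicate 2 (-0.55, adjusted p = 0.0828), *tbx16* replicate 3 (-0.59, adjusted p = 0.0628) or *msgn1* replicate 2 (-0.48, adjusted p = 0.0645).

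The endothelial and blood markers did not move in 1 direction beside *cdh5*. Of 8 tested in the *tbx16* line, *kdrl*, the endothelial VEGF receptor (log2 fold change -2.19), and *fli1a* (-1.15) were lower, and *etv2*, the early factor of the lineage (1.87), *tal1* (0.84) and *cldn5b* (2.65) were higher. Their summed level was 327 to 378 CPM in wild type, 503 to 815 in the *tbx16* line and 254 to 336 in the *msgn1* line, and none was at 0 throughout. Markers of other tissues that hold type II cadherins also moved in the *tbx16* line. Neural markers summed to 186 to 263 CPM there and 570 to 591 in wild type, with 7 of 9 lower. Pronephric markers summed to 40.1 to 71.9 CPM against 138 to 149, with 3 of 5 lower. Of all genes tested, 15.7% were lower and 15.0% higher in that line. The *msgn1* line had 374 to 454 CPM of neural and 128 to 138 of pronephric markers. The part of these tissues in the type II values was not tested.

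Of the other type II members, *cdh18a* passed in no comparison at 5.0 to 5.87 CPM in wild type, 4.94 to 7.42 in the *tbx16* line and 2.67 to 6.57 in the *msgn1* line. *cdh10a*, *cdh24a* and *cdh24b* were measured at means of 9.44 to 39 counts and passed nowhere over all 9 samples. Without wild type replicate 2 *cdh24a* was higher in the *tbx16* line than in wild type (adjusted p = 0.0119, against 0.264 with it). *cdh22* had 4 counts in wild type replicate 3, 3 in *tbx16* replicate 3 and 0 elsewhere, and *cdh12a* had 0 in all samples, where 3 counts would be 0.0536 to 0.121 CPM.

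Outside the classical cadherins, *cdh26.1* and *cdh26.2* passed between the lines and did not pass against wild type over all 9 samples. *CDH26* is known from human epithelia. The zebrafish pair are neighbours with no protein-coding gene between them, and where reads fit both copies the split of counts between them is uncertain. *cdh26.1* measured 5.29, 5.26 and 2.65 CPM in wild type, 8.05, 7.25 and 7.55 in the *tbx16* line and 2.06, 5.91 and 2.43 in the *msgn1* line. *cdh26.2* measured 2.80, 5.75 and 0.914 CPM in wild type, 4.30, 9.26 and 6.40 in the *tbx16* line and 2.66, 1.38 and 1.00 in the *msgn1* line. For both genes every *tbx16* sample was above every *msgn1* sample, and wild type varied most for *cdh26.2*, whose wild-type samples overlapped both lines. For *cdh26.1* every *tbx16* sample was also above every wild-type sample, as for 27.8% of all genes. The lines differed by 1.13 ± 0.39 for *cdh26.1* (adjusted p = 0.0446) and by 2.00 ± 0.60 for *cdh26.2* (adjusted p = 0.0244). Against wild type the *tbx16* line was 0.79 ± 0.39 for *cdh26.1* (adjusted p = 0.149) and 1.08 ± 0.57 for *cdh26.2* (adjusted p = 0.180). The *msgn1* line was -0.33 ± 0.39 (adjusted p = 0.748) and -0.92 ± 0.59 (adjusted p = 0.518).

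These calls rested on few samples. That of *cdh26.1* held only without wild type replicate 3 or *msgn1* replicate 2 and was lost when any of the other 7 libraries was left out, with log2 values between 0.87 and 1.17 and adjusted p between 0.0558 and 0.133. That of *cdh26.2* was lost without *tbx16* replicate 2 (1.69, adjusted p = 0.0845), *tbx16* replicate 3 (2.02, adjusted p = 0.0510), *msgn1* replicate 2 (1.88, adjusted p = 0.0714) or *msgn1* replicate 3 (1.73, adjusted p = 0.0766). Against wild type, leaving out *msgn1* replicate 2 gave *cdh26.1* 0.79 with an adjusted p of 0.0480 in the *tbx16* line, and leaving out wild type replicate 2 gave *cdh26.2* 1.83 with an adjusted p of 0.0466. The epidermal marker sums given beside *cdh1* did not separate the groups, although *tp63* was lower in both lines. The part of epidermal cells in the *cdh26.1* and *cdh26.2* values was not tested.

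The rest of this class was at the edge of detection. *cdh13* (T-cadherin), which is tied to the membrane by a lipid anchor, *cdh16*, known from mammalian kidney, *cdh23*, part of the tip links of hair cells, *cdh27* and *cdh29* had means of 8.33 to 47.2 counts and passed nowhere with TMM scaling. With library size alone *cdh13* was higher in the *tbx16* than in the *msgn1* line (log2 fold change 1.89, adjusted p = 0.0457, against 0.0725). *cdh31* had 4 and 12 counts in *msgn1* replicates 2 and 3 and 0 in the other 7 samples. *cdh28* and *cdh30* had 0 counts in all 9 samples.

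Of the delta-1 protocadherins, *pcdh1b* was the one with the most counts. *PCDH1* is known from human airway epithelium. *pcdh1b* stood at 118, 103 and 105 CPM in wild type, 76.7, 81.9 and 107 in the *tbx16* line and 113, 159 and 135 in the *msgn1* line. Both lines overlapped wild type, and the *tbx16* samples were below all *msgn1* samples. The lines differed by -0.62 ± 0.16 (1.53-fold, adjusted p = 0.0116), with -0.30 ± 0.16 (adjusted p = 0.172) and 0.32 ± 0.16 (adjusted p = 0.391) against wild type. With library-size scaling the difference between the lines was -0.31 (adjusted p = 0.206). Its duplicate *pcdh1a* passed nowhere, at 12.2 to 15.7 CPM in wild type, 11.6 to 14.4 in the *tbx16* line and 8.22 to 16.6 in the *msgn1* line.

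*pcdh7b* and *pcdh7a*, relatives of the ectodermal NF-protocadherin of *Xenopus*, differed between the lines in opposite directions. *pcdh7b* measured 2.58, 2.45 and 2.86 CPM in wild type, 3.27, 2.88 and 2.58 in the *tbx16* line and 3.83, 5.99 and 4.68 in the *msgn1* line. The *msgn1* samples were above all others. The difference between the lines was -0.74 ± 0.22 (adjusted p = 0.0257), which was lost without *tbx16* replicate 2 (-0.72, adjusted p = 0.0718), *tbx16* replicate 3 (-0.66, adjusted p = 0.0763) or *msgn1* replicate 2 (-0.55, adjusted p = 0.0778). *pcdh7a* had 59, 23 and 52 counts in wild type, 177, 85 and 122 in the *tbx16* line and 9, 25 and 0 in the *msgn1* line. In CPM the *tbx16* samples were above all others, *msgn1* replicate 2 reached the lowest wild-type sample, and the lines differed by 2.92 ± 0.80 (adjusted p = 0.0165, and 0.0558 without *tbx16* replicate 1). Against wild type the *tbx16* line did not pass over all 9 samples (adjusted p = 0.197), but did in a fit of only those groups (0.0409) and without *msgn1* replicate 3 (0.0442). *pcdh9*, at 9.56 counts, and *pcdh11*, at 38.8, passed nowhere.

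**Figure D3:**
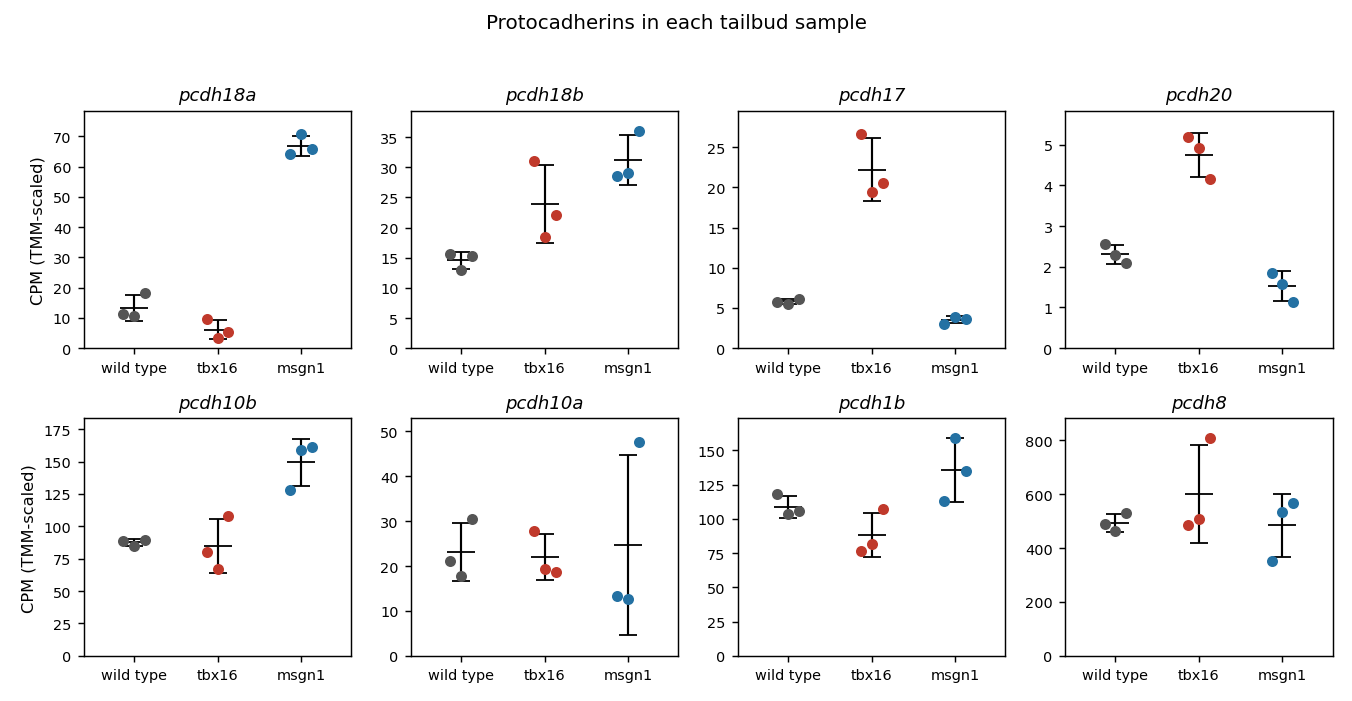
CPM after TMM scaling of 8 protocadherins in each of the 9 tailbud samples, with 1 point per sample and bars for the mean and SD (n = 3 per group), on axes that start at 0. *pcdh18a* stands at 64.1 to 70.6 CPM in the *msgn1* line and below 20 in all other samples, and *pcdh17* and *pcdh20* are highest in the *tbx16* line and lowest in the *msgn1* line.

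The delta-2 protocadherins held both calls of the *msgn1* line and 4 of the 13 of the *tbx16* line, and the plot of levels by sample shows them with other protocadherins. *pcdh18a*, known in zebrafish for its part in the turnover of E-cadherin in axial mesoderm, measured 11.4, 10.5 and 18.3 CPM in wild type, 9.74, 3.48 and 5.22 in the *tbx16* line and 64.1, 70.6 and 65.7 in the *msgn1* line. The 3 groups did not overlap, and the *msgn1* samples were far above the rest. It rose by 2.32 ± 0.34 on the log2 scale in the *msgn1* line (4.99-fold, adjusted p = 0.0118) and was -1.13 ± 0.33 in the *tbx16* line (2.18-fold lower, adjusted p = 0.0268). The lines differed by -3.45 ± 0.35 (10.9-fold, adjusted p = 9.97e-05).

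The *msgn1* call of *pcdh18a* was lost without wild type replicate 1 (2.21, adjusted p = 0.0890) or wild type replicate 2 (2.17, adjusted p = 0.0717). The fall in the *tbx16* line was lost without wild type replicate 3 (-0.84, adjusted p = 0.0920), *tbx16* replicate 2 (-0.83, adjusted p = 0.0782) or *tbx16* replicate 3 (-1.03, adjusted p = 0.0856). The difference between the lines kept its call in each of these. *pcdh18a* was the only member called in both lines in opposite directions, as were 0.251% of all genes tested. Of 5 tested notochord and floor plate markers 3 were lower and 1 higher in the *tbx16* line, beside 15.7% and 15.0% of all genes. In the *msgn1* line *noto* alone passed, being lower (-0.80, adjusted p = 0.0368), beside 0.497% of all genes. The part of these tissues in the *pcdh18a* values was not tested.

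*pcdh18b*, its duplicate and known in zebrafish for motor axon growth, was higher in both lines. It measured 15.6, 13.0 and 15.2 CPM in wild type, 31.1, 18.5 and 22.1 in the *tbx16* line and 28.6, 29.1 and 36.0 in the *msgn1* line. Every transgenic sample lay above every wild-type sample, and the lines overlapped. The log2 fold change was 0.71 ± 0.19 in the *tbx16* line (1.63-fold, adjusted p = 0.0185) and 1.09 ± 0.19 in the *msgn1* line (2.14-fold, adjusted p = 0.0302), and the lines differed by -0.39 ± 0.19 (adjusted p = 0.132). *pcdh18a* and *pcdh18b* were the 2 members called in both lines, beside 0.663% of all genes.

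The calls of *pcdh18b* were lost with some single libraries left out, while its direction against wild type held. In the *tbx16* line it was 0.63 (adjusted p = 0.0696) without wild type replicate 2 and 0.48 (adjusted p = 0.0515) without *tbx16* replicate 1, its highest value there, and without that sample the difference between the lines was -0.61 (adjusted p = 0.0207). In the *msgn1* line the call was lost without wild type replicate 1 (1.15, adjusted p = 0.121), 2 (1.02, adjusted p = 0.140) or 3 (1.13, adjusted p = 0.107). It was also lost without *msgn1* replicate 1 (1.15, adjusted p = 0.0846) or 3 (0.98, adjusted p = 0.103). Over all genes that line had 37, 48 and 66 calls without wild type replicate 1, 2 and 3, and 170 in the main fit. By DESeq2 the adjusted p of *pcdh18b* there was 1.9e-05.

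*pcdh17*, known in mouse for axon extension, had 5.72, 5.55 and 6.16 CPM in wild type, 26.7, 19.5 and 20.5 in the *tbx16* line and 3.02, 3.92 and 3.68 in the *msgn1* line. All groups were apart, with the *tbx16* line above and the *msgn1* line below wild type. It rose by 1.93 ± 0.17 on the log2 scale in the *tbx16* line (3.82-fold, adjusted p = 4.41e-05), was -0.71 ± 0.17 in the *msgn1* line (1.64-fold lower, adjusted p = 0.110) and differed by 2.65 ± 0.18 between the lines (6.26-fold, adjusted p = 8.70e-06). Without *msgn1* replicate 2 the value in the *msgn1* line was -0.79 (adjusted p = 0.0478).

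*pcdh19*, which works with N-cadherin in the zebrafish neural plate and is an epilepsy gene in humans, ran the other way in the *tbx16* line. It measured 148, 138 and 157 CPM in wild type, 31.3, 22.1 and 32.6 in the *tbx16* line and 79.8, 116 and 126 in the *msgn1* line. The groups did not overlap, and the *msgn1* samples lay between, closest to wild type. It fell by 2.37 ± 0.19 on the log2 scale in the *tbx16* line (5.16-fold, adjusted p = 2.73e-05) and was -0.46 ± 0.19 in the *msgn1* line (adjusted p = 0.307). Most of the listed neural, pronephric and tailbud markers were lower in the *tbx16* line too, where 15.7% of all genes were. The part of these tissues in the *pcdh19* values was not tested. The lines differed by -1.90 ± 0.19 (adjusted p = 8.90e-05).

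*pcdh10b* was higher in the *msgn1* than in the *tbx16* line. It measured 89.0, 84.8 and 89.7 CPM in wild type, 79.9, 66.9 and 108 in the *tbx16* line and 128, 159 and 161 in the *msgn1* line. The *msgn1* samples were above all others, and the *tbx16* samples lay on either side of wild type. The log2 fold changes were 0.77 ± 0.17 in the *msgn1* line (1.70-fold, adjusted p = 0.0703, and 0.0235 without *tbx16* replicate 3 in the joint fit), -0.05 ± 0.16 in the *tbx16* line (adjusted p = 0.854) and -0.81 ± 0.17 between the lines (adjusted p = 0.00406). In the *msgn1* line *pcdh10b* also passed by DESeq2 (adjusted p = 0.000957), in a fit of only those groups (0.0340) and with at least 10 counts in every sample (0.0490). It did not pass under the other settings, with 0.0970 for the replicate number as a block and 0.198 for library size alone. Its duplicate *pcdh10a* passed in no comparison over all 9 samples. It measured 21.2, 17.9 and 30.5 CPM in wild type, 27.8, 19.4 and 18.7 in the *tbx16* line and 13.3, 12.7 and 47.8 in the *msgn1* line, where replicate 3 stood far above the other 2. Without that sample *pcdh10a* was higher in the *tbx16* than in the *msgn1* line (log2 fold change 0.75, adjusted p = 0.0474, against 0.801 with it).

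*pcdh8*, the paraxial protocadherin, did not pass in any comparison. It measured 489, 463 and 530 CPM in wild type, 484, 509 and 808 in the *tbx16* line and 351, 533 and 567 in the *msgn1* line. The groups overlapped, with *tbx16* replicate 3 the highest and *msgn1* replicate 1 the lowest of the 9 samples. Its log2 fold change was 0.28 ± 0.22 in the *tbx16* line (adjusted p = 0.368), -0.03 ± 0.22 in the *msgn1* line (adjusted p = 0.9702) and 0.31 ± 0.22 between the lines (adjusted p = 0.289). Changes of this size were not detectable at this spread.

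Of the remaining protocadherins, *pcdh20* was higher in the *tbx16* line. It measured 2.55, 2.28 and 2.09 CPM in wild type, 5.20, 4.91 and 4.15 in the *tbx16* line and 1.85, 1.57 and 1.12 in the *msgn1* line. As with *pcdh17*, the groups were apart and wild type lay between the lines. Its log2 fold change was 1.04 ± 0.24 in the *tbx16* line (2.06-fold, adjusted p = 0.00851), -0.61 ± 0.25 in the *msgn1* line (adjusted p = 0.308) and 1.65 ± 0.25 between the lines (adjusted p = 0.000761). The name stands on a second line of the table with 7 to 231 counts. With the lines of a name summed the value in the *tbx16* line was 0.97 (adjusted p = 0.0659).

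*pcdh15b*, a paralogue of the tip-link protocadherin of hair cells, had 19, 0 and 17 counts in wild type, 0 in all 3 samples of the *tbx16* line and 11, 7 and 15 in the *msgn1* line. Its level in the *tbx16* line was at least 4.53-fold lower than the wild-type mean and at least 5.87-fold lower than the *msgn1* mean when 3 counts per library are taken as the limit (adjusted p = 0.0272 and 0.0187), although 1 wild-type sample was also at 0. The call against wild type was lost without wild type replicate 1 or 3 and without *tbx16* replicate 1, 2 or 3 (adjusted p between 0.0611 and 0.0778), and that between the lines without *tbx16* replicate 2 (adjusted p = 0.0520). *pcdh15a*, with a mean of 19.7 counts, passed nowhere. *pcdh12*, an endothelial protocadherin in mammals, measured 17.4 to 18.9 CPM in wild type, 12.2 to 17.1 in the *tbx16* line, where every sample was below wild type (log2 fold change -0.38 ± 0.17, adjusted p = 0.114), and 13.2 to 17.5 in the *msgn1* line. It passed against wild type without *tbx16* replicate 3 (-0.56, adjusted p = 0.0312).

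In all, the 3 groups were apart from one another for 7 of the 37 members (*cdh6*, *cdh11*, *pcdh9*, *pcdh17*, *pcdh18a*, *pcdh19*, *pcdh20*), beside 7.73% of all genes. The order was wild type over *msgn1* over *tbx16* for *cdh6*, *cdh11* and *pcdh19*, and *tbx16* over wild type over *msgn1* for *pcdh17* and *pcdh20*. For *pcdh18a* it was *msgn1* over wild type over *tbx16*, and for *pcdh9*, at 0 to 19 counts, wild type over *tbx16* over *msgn1*. Summed over all members, the level was 2447 to 2518 CPM in wild type, 1803 to 2405 in the *tbx16* line and 2390 to 2860 in the *msgn1* line, a sum in which *cdh2* and *pcdh8* have most of the counts.

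Several members are neighbours in the genome. In the RefSeq annotation of the GRCz12tu assembly, used here for gene order alone and matched for 40 of the 42 members, *pcdh10a* and *pcdh18a* have no protein-coding gene between them, and *pcdh18b* and *pcdh10b* have 1. *cdh11* and *cdh5* also have none between them, nor do *cdh6* and *cdh10a*. In the first pair *pcdh18a* was 4.99-fold higher in the *msgn1* line while the *pcdh10a* samples overlapped wild type (log2 fold change 0.09, adjusted p = 0.957). In the second, *pcdh18b* and *pcdh10b* were each above all wild-type samples in the *msgn1* line, as 8.84% of all genes were. There *pcdh10b* did not pass in the main fit (adjusted p = 0.0703). In the *tbx16* line *pcdh18b* was higher (log2 fold change 0.71) while *pcdh10b* was -0.05 (adjusted p = 0.854). *cdh11* and *cdh5* were both lower in the *tbx16* line, 4.29-fold and 1.60-fold. For the *msgn1* line *cdh11* was -0.67 (adjusted p = 0.0577) and *cdh5* -0.06 (adjusted p = 0.928). *cdh6* fell 5.17-fold in the *tbx16* line, while *cdh10a* measured 0.529 to 1.03 CPM in wild type and 1.18 to 1.39 in that line (log2 fold change 0.78 ± 0.43, adjusted p = 0.201).

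**Figure D4:**
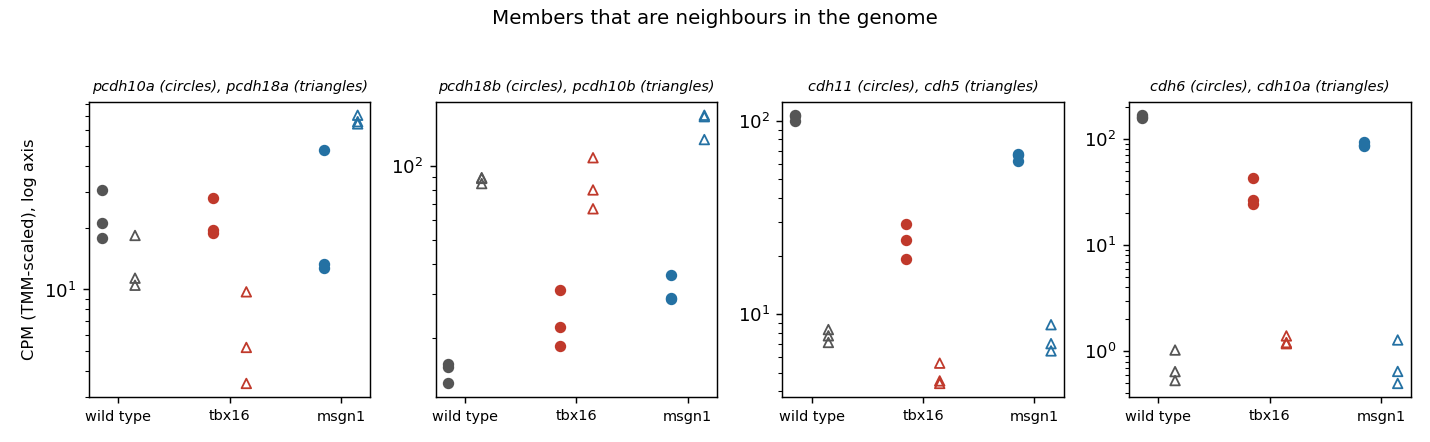
CPM after TMM scaling on a log axis for 4 pairs of neighbouring members, with 1 symbol per sample (grey wild type, red *tbx16* line, blue *msgn1* line), filled circles for the first and open triangles for the second gene of each pair. In the *msgn1* line the *pcdh18a* triangles stand above all others of that gene while the *pcdh10a* circles overlap wild type, and in the *tbx16* line *cdh6* lies below and *cdh10a* above wild type, of which the first passed the test.

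The genes through which cadherins work were read from lists. Of 18 listed catenins and junction partners 16 were found and tested. In the *tbx16* line 2 were higher and 3 lower, with a median log2 fold change of 0.0879. That was 31.2% of them, beside 30.7% of all genes. *ctnnd2b*, a delta-catenin, fell from 37.9 to 40.5 CPM in wild type to 15.3 to 19.6 (log2 fold change -1.22 ± 0.12, adjusted p = 9.23e-05). *arvcfb*, another member of the p120 catenin family, fell by 0.92 ± 0.12 (adjusted p = 0.000457), and the afadin gene *afdna* by 0.76 ± 0.16 (adjusted p = 0.00613). The vinculin gene *vclb* rose by 0.68 ± 0.17 (adjusted p = 0.0142). The beta-catenin gene *ctnnb1*, given outside the naming rule, measured 1952 to 2073 CPM in wild type, 1636 to 1858 in the *tbx16* line and 2183 to 2421 in the *msgn1* line, and neither line passed against wild type (adjusted p = 0.187 and 0.445).

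Of 14 listed transcription factors known as repressors of cadherin genes, the Snail, Zeb and Twist families among them, all 14 were found and 13 tested. In the *tbx16* line 4 were higher and 2 lower (median -0.117), which was 46.2% of them beside the same 30.7%. *zeb2b* rose from 2.38 to 2.87 CPM to 13.5 to 22.4 (log2 fold change 2.80 ± 0.26, adjusted p = 5.67e-05), *snai1b* from 33.2 to 38.2 CPM to 68.3 to 79.5 (0.98 ± 0.11, adjusted p = 0.000127) and *twist3* by 2.496 ± 0.40 (adjusted p = 0.00125). *twist1a* was -1.385 ± 0.27 (adjusted p = 0.00374). Every sample of the line was outside the wild-type range for these 4, which were named for their small adjusted p. Of all genes tested, 52.8% did not overlap wild type in that line.

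Of 14 listed subunits of the WAVE complex 13 were found and tested, and in the *tbx16* line 3 were higher and 1 lower (median 0.0542). That was 4 of 13 (30.8%), beside 30.7% of all genes. *wasf1*, a WAVE subunit gene, rose from 4.86 to 6.31 CPM to 14.0 to 21.6 (log2 fold change 1.58 ± 0.22, adjusted p = 0.000557), *cyfip1* by 0.58 ± 0.09 (adjusted p = 0.00112) and *abi2b* by 0.53 ± 0.10 (adjusted p = 0.00294). *wasf3b* fell from 143 to 175 CPM to 62.2 to 97.5 (-1.08 ± 0.18, adjusted p = 0.00169). In the *msgn1* line no gene of these 3 lists passed edgeR's test in either direction. At an unadjusted p under 0.05 that line had 0 higher and 4 lower partners, 1 and 3 repressors and 4 and 0 WAVE subunits, and DESeq2 called 1 repressor higher, 2 lower and none of the rest. The shares of all genes there were 14.1% at that unadjusted p and 3.61% by DESeq2.

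**Figure D5:**
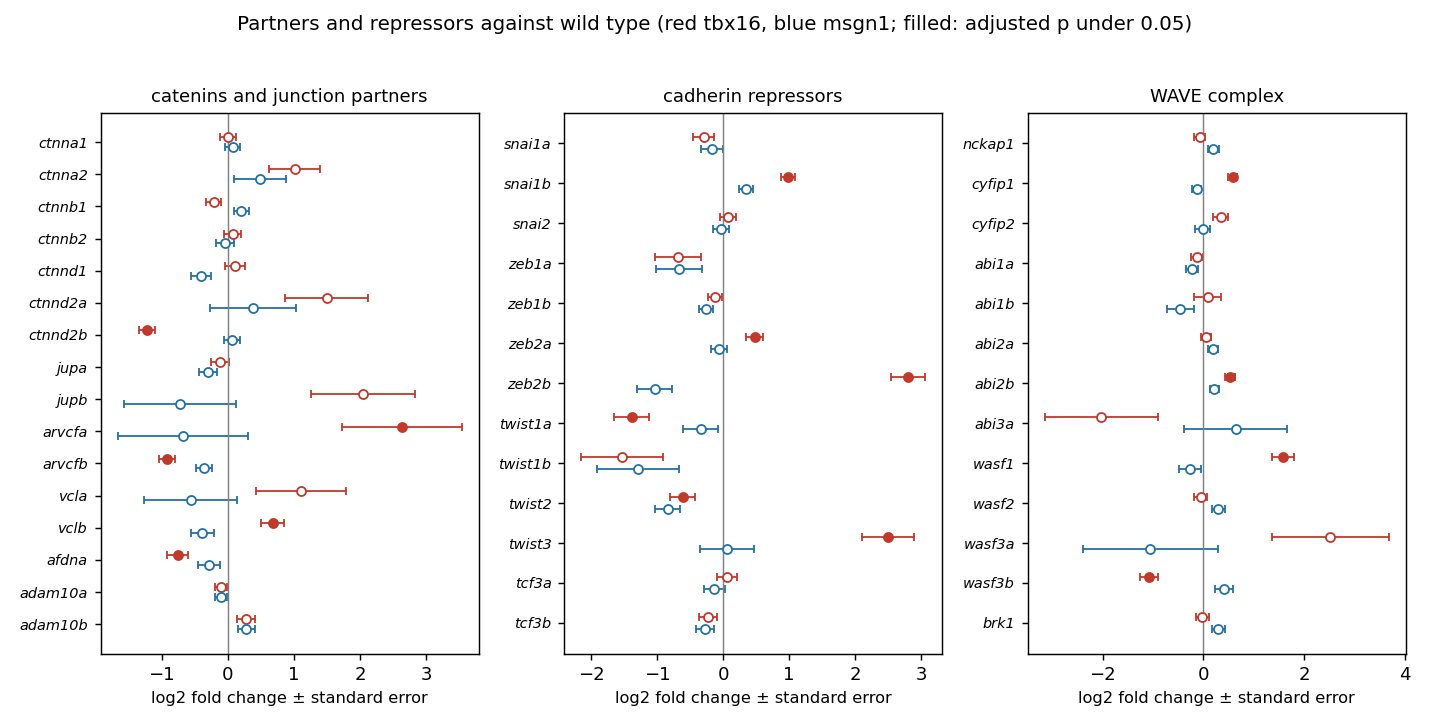
Log2 fold change with its standard error against wild type for the tested genes of 3 lists, red for the *tbx16* line and blue for the *msgn1* line, filled where the adjusted p (edgeR) was under 0.05. All filled points are of the *tbx16* line, with *zeb2b* at 2.80 and *ctnnd2b* at -1.22.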

How the data were processed

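The authors trimmed reads with Trim Galore 0.5.0, aligned them to GRCz11 with HISAT2 2.1.0, quantified genes with StringTie. The table deposited by the authors holds whole-number, unscaled counts. The annotation release, the use of strand and the step from StringTie to whole counts are not given in the sources used here. Of 32020 lines, 64 had a blank name (0.0903% of counts) and were left out. Totals were 30724561 to 49611289 per sample, and at this depth 3 counts are 0.0536 to 0.121 CPM.

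All 9 samples were fitted with edgeR 4.0.16 (limma 3.58.1, R 4.3.3): filterByExpr (19914 genes), TMM, 1 coefficient per group, quasi-likelihood F-test, Benjamini-Hochberg adjustment over all genes tested, threshold 0.05. The standard error is the log2 fold change over the root of F. The fits were also run on simulated counts, in which far fewer genes changed than passed in the *tbx16* line. That run does not give the rate of false calls in these data. Figures were drawn with matplotlib 3.10.9.

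Members and gene lists were chosen with earlier results of these data known. Values in every sample were to be given for members with a mean of at least 100 counts that passed in any comparison, and for abundant members that did not. Abundance per coding length could not be used, since no lengths were at hand, and levels are not compared between genes. Of the lists, the 4 genes with the smallest adjusted p were named. *cdh28* and *cdh29* had no class and were put with the other cadherins. Alternatives were no filter, at least 10 counts in every sample, RLE, library size alone, DESeq2 1.42.0, 2 groups only, the replicate number as a block, a threshold of 0.01, a 1.5-fold change, repeated names summed, and each sample left out. The labels give the heat shock as 28 degrees, and the study's methods give a higher temperature. No sequences are shown.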

Additional observations from a re-analysis of the deposited data

Results flagged for a closer look

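For 3 members every sample of one line lay above and every sample of the other line below all wild-type samples, and the difference between the lines passed edgeR's quasi-likelihood test. Of all genes tested, 2.62% had the *msgn1* line highest and the *tbx16* line lowest with no overlap, as *pcdh18a* did, and 2.13% the reverse order, as *pcdh17* and *pcdh20* did. *pcdh18a* differed by -3.445 on the log2 scale between the *tbx16* and the *msgn1* line (adjusted p = 9.97e-05), being higher than wild type in the *msgn1* line. *pcdh17* differed by 2.646 (adjusted p = 8.70e-06) and *pcdh20* by 1.651 (adjusted p = 0.000761), both being higher than wild type in the *tbx16* line. Against wild type, the values of *pcdh17* and *pcdh20* in the *msgn1* line did not pass (adjusted p = 0.110 and 0.308).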

How the results depend on the processing

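With 3 samples a group an exact permutation test cannot go below p = 0.1, so calls rest on the spread that edgeR shares over genes. Scaling by library size alone, which leaves the median of all genes at 0.178, -0.2 and 0.38 for the *tbx16* line, the *msgn1* line and the line difference (0.0305, -0.02 and 0.0503 with TMM), gave 5 lower members in the *tbx16* line, 1 higher and 2 lower in the *msgn1* line, and 5 lower between the lines. A threshold of 0.01 gave 2 higher and 4 lower in the *tbx16* line, 0 higher in the *msgn1* line, and 2 higher and 6 lower between the lines. Over all genes the main fit gave 6120, 170 and 7637 calls in these 3 comparisons. Library size alone gave 5961, 191 and 8272, and a threshold of 0.01 gave 3213, 53 and 4134. In the *msgn1* line DESeq2 gave 5 higher and 4 lower members, and at least 10 counts in every sample and a fit of only 2 groups gave 3 higher and 2 lower each. Leaving out 1 library gave 3 to 7 higher and 4 to 8 lower members in the *tbx16* line, 0 to 3 and 0 to 4 in the *msgn1* line, and 3 to 6 and 7 to 11 between the lines. Over all genes the *msgn1* line had 170 calls, 718 by DESeq2, 37 without wild type replicate 1 and 1198 without *msgn1* replicate 2. At least 10 counts in every sample gave that line 205, and a fit of only 2 groups gave 143. With 1 library left out, 3968 to 6644 genes passed in the *tbx16* line and 5640 to 8010 between the lines.

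Directions turned only for values that had not passed. With library size alone *pcdh10b* was 0.094 and *cdh2* 0.020 in the *tbx16* line, *cdh15* was -0.025 in the *msgn1* line and *cdh1* 0.25 between the lines. With 1 library left out *pcdh10b* ranged from -0.26 to 0.10 in the *tbx16* line, *cdh5* from -0.20 to 0.037 and *cdh15* from -0.15 to 0.44 in the *msgn1* line, and *cdh1* from -0.27 to 0.19 between the lines. The cause was not tested. Scaling by library size also ended the calls of *cdh1* (-0.56, adjusted p = 0.0853), *cdh5* (-0.53, adjusted p = 0.1001) and *pcdh18a* (-0.98, adjusted p = 0.0638) in the *tbx16* line, of *pcdh18b* (0.91, adjusted p = 0.0903) in the *msgn1* line, and of *pcdh10b* (-0.50, adjusted p = 0.0504), *cdh5* (-0.30, adjusted p = 0.296) and *pcdh7b* (-0.42, adjusted p = 0.233) between the lines. The calls of *cdh5* and *pcdh7b* between the lines were also lost in a fit of only those groups (adjusted p = 0.0516 and 0.0509). Of 459 values of the 17 named members with 1 library left out, 402 kept direction and call, 39 lost and 11 gained a call, and 7 turned. Of 408 under other settings these were 377, 12, 15 and 4. *cdh6*, *cdh11*, *cdh7a*, *pcdh17* and *pcdh19* kept their calls in the *tbx16* line under all of them.

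Same-numbered samples deviated together in 3 of 9 pairs (correlation over 0.1; range -0.238 to 0.581, against -0.551 to 0.529 for unlike numbers), so the numbers were not taken to pair the samples. Between wild type and the *msgn1* line, whose embryos were siblings, equal numbers gave 0.177, -0.025 and 0.581 and unlike numbers -0.551 to 0.529. The labels do not say whether equal numbers share a clutch. With the replicate number as a block the members called were 4 higher and 7 lower in the *tbx16* line, 2 and 0 in the *msgn1* line, and 6 and 10 between the lines. The members lost were *cdh4* and *pcdh15b* in the *tbx16* line. Over all genes the block gave 5436, 85 and 6901 calls, without it 6120, 170 and 7637.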
